A study of Homo sapiens with 15 samples.

Results

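The 40 genes described here carry glucose from its uptake to lactate or answer to low oxygen, and were chosen by name from among the 19612 gene symbols of the table. They are 2 glucose transporters, 17 enzymes from hexokinase to lactate dehydrogenase (HK1 to LDHB), 2 lactate transporters, 4 kinases that set flux, 3 genes of oxygen sensing and 12 further targets of hypoxia-inducible factors. Levels were compared across 15 RNA sequencing libraries, 3 for each of 5 conditions, of a human lung adenocarcinoma cell line and a derivative of it. Parental H1975 cells given vehicle are Samples 1a, 1b, and 1c. Osimertinib-resistant H1975–OR cells were given vehicle (Samples 2a, 2b, and 2c), 100 nM 1,25(OH)2D3 (3a, 3b, and 3c), 500 nM osimertinib (4a, 4b, and 4c), or both agents at these doses (5a, 5b, and 5c). The labels give EGFR T790M and L858R for all 15 libraries. 1,25(OH)2D3 is the hormonally active form of vitamin D3, and osimertinib is an inhibitor of mutant EGFR. The methods give, for vehicle, each agent and the combination, media with charcoal stripped serum and 96 h of treatment with doses at 0, 48, and 92 h. They name 3 separate passages for the vehicle and 1,25(OH)2D3 libraries. For those with osimertinib only their general statement on biological replicates of in vitro experiments applies. The H1975–OR line was made by weeks of exposure to osimertinib and is kept in 500 nM of it, so the vehicle libraries are also libraries of cells taken off the inhibitor. No untreated time course and no low-oxygen culture are among these libraries.

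Glycolysis splits glucose to pyruvate in the cytosol, and many cancer cells turn much of that pyruvate into lactate even where oxygen is present. Several steps can be run by more than 1 isozyme from separate genes, and the isozymes differ in affinity, regulation and tissue. In low oxygen the prolyl hydroxylases encoded by EGLN1 and EGLN3 lose activity, the protein made from HIF1A escapes degradation, and HIF dimers switch on genes of glucose uptake, glycolysis, acid handling and vessel growth. HIF1A activity is set mostly at the protein, so its mRNA is not a measure of it.

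Library totals of the estimated counts ran from 4378030 to 6140120 (median 4974785). Levels are given as CPM, counts scaled to a common library total and corrected by the TMM method of edgeR. All tests below are quasi-likelihood tests of edgeR, with p-values adjusted by Benjamini and Hochberg over all genes tested, SE is the standard error of a log2 fold change, and "called" means an adjusted p under 0.05. Sample 3a stood apart from the other libraries, was left out by the study and is left out of every mean and test here unless named. Of 11 markers of lung adenocarcinoma and epithelial cells, KRT7, KRT8, KRT18, KRT19, EGFR and NKX2-1 were well detected in every library. CDH1, which encodes E-cadherin, was at 108 to 384 CPM in H1975, 5.21 to 9.41 CPM in vehicle-treated H1975–OR, 108 and 152 CPM in Samples 3b and 3c, 2.45 to 6.66 CPM with osimertinib and 39.6 to 68 CPM with both agents. MUC1 was at 4.74 to 22.6 CPM in H1975 and 0.818 to 4.24 CPM with vehicle. NAPSA and SFTPB did not exceed 13 counts in a library, and EPCAM reached only 12.7 CPM in H1975–OR against 75 to 207 CPM in H1975. The 13 markers of blood, vessel, fibroblast, liver and red cells summed to between 17.87 and 20.79 CPM in H1975 and between 23.49 and 50.79 CPM in vehicle-treated H1975–OR. CD3E and MS4A1 were at 0 in every library, and PDGFRB, at 15 to 29.3 CPM against at most 5.37 CPM in H1975, gave most of the H1975–OR sum. The part of these marker differences in the results was not tested, and bulk RNA cannot tell fewer cells of a type from less RNA per cell.

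The first comparison asks how the resistant line differs from its parent when both receive vehicle. Of the 17 glycolytic enzymes 7 fell in the resistant line and 10 were not called, and both membrane carbonic anhydrases fell. PFKP, the platelet-type phosphofructokinase, had a log2 fold change of -1.37, CA12 one of -3.29 and CA9 one of -4.80, while the collagen hydroxylase P4HA2 rose by 0.98. Of 39 members tested, 13 were called, 2 higher and 11 lower. The background is 20.1% of the 12513 genes tested, 9.89% called higher and 10.3% called lower, and 28.2% of the members were called lower. These shares are a description, since the list was not drawn up blind to these data. The median log2 fold change was -0.24 over the members and 0.01 over all tested genes. Among the 17 enzymes 7 were called lower and 0 higher, with a median log2 fold change of -0.28, and among the 12 hypoxia targets 2 were called higher and 2 lower, with a median of 0.125. DESeq2 called 17 members and 24.3% of all genes. Libraries of the 2 lines did not overlap for 4 members that were higher and 17 that were lower, where 19% and 20.3% of all genes had such an order.

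**Figure D1:**
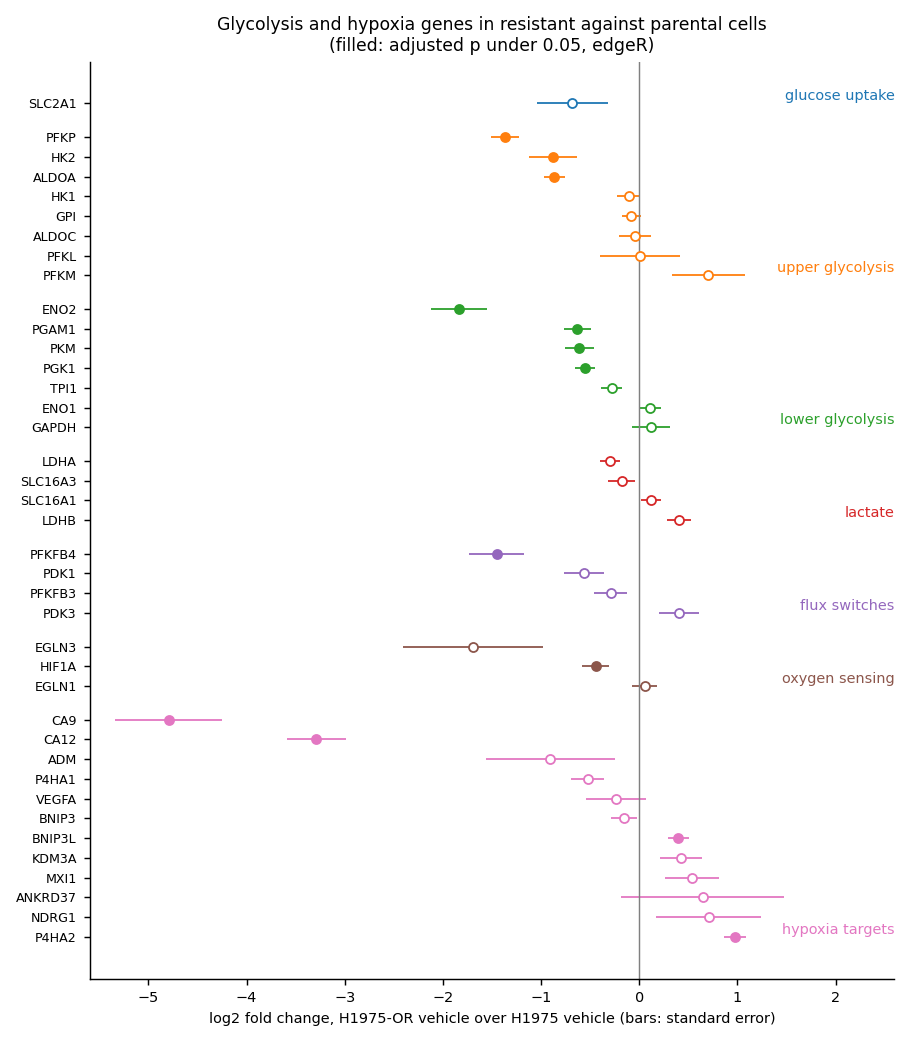
Log2 fold change of the 39 tested members in vehicle-treated H1975–OR over vehicle-treated H1975 cells, grouped by role, with bars for the standard error (SE). Filled points have an adjusted p under 0.05 in edgeR's test, and 11 of the 13 filled points lie left of 0.

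Neither glucose transporter was called. SLC2A1, the basal glucose transporter, stood at 11.26, 30.26, and 26.25 CPM in H1975 and at 11.05, 14.27, and 16.39 CPM in H1975–OR, so the lines overlapped (log2 fold change -0.68, SE 0.36, adjusted p = 0.218 by edgeR). SLC2A3, a high-affinity transporter, was too low to be tested, with 13 counts over the 3 H1975 libraries and 0 over the 3 vehicle-treated H1975–OR libraries, which allows up to 3 counts over those libraries together.

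Of the 8 enzymes from hexokinase to aldolase 3 fell. PFKP, on chromosome 10 of GRCh38 from 3066333 to 3137718, stood at 296.4, 335.8, and 354.5 CPM in Samples 1a, 1b, and 1c and at 133.4, 113.8, and 130.5 CPM in Samples 2a, 2b, and 2c. Every resistant library was below every parental one, by a log2 change of -1.37 (SE 0.14, adjusted p = 0.000672 by edgeR). ALDOA, the main aldolase of most tissues, stood at 1442, 1578, and 1432 CPM in H1975 and at 742.1, 786.3, and 892.9 CPM in H1975–OR. The gap between the lines was wider than the spread within either (log2 fold change -0.86, SE 0.11, adjusted p = 0.00165 by edgeR). HK2, the inducible hexokinase bound to mitochondria, stood at 64.97, 89.52, and 135.3 CPM in H1975 and at 48.9, 47.57, and 59.19 CPM in H1975–OR. The resistant libraries were all lower, but the parental ones were widely spread (log2 fold change -0.88, SE 0.25, adjusted p = 0.0377 by edgeR). The other 5 of these enzymes were not called. HK1, the housekeeping hexokinase, had a log2 fold change of -0.11, GPI, the isomerase, -0.08, PFKL, the liver-type phosphofructokinase, 0.01, PFKM, the muscle type, 0.70, and ALDOC, the brain-type aldolase, -0.04.

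Of the 7 enzymes from the triose isomerase to pyruvate kinase 4 fell. ENO2, the neuronal enolase, stood at 17.15, 21.7, and 20.56 CPM in H1975 and at 6.138, 6.205, and 4.049 CPM in H1975–OR. The resistant libraries lay far under the parental ones (log2 fold change -1.84, SE 0.28, adjusted p = 0.00369 by edgeR). PGK1, which makes the first ATP of the pathway, stood at 648.8, 699.5, and 651.1 CPM in H1975 and at 494.9, 414.7, and 442.7 CPM in H1975–OR. The lines did not overlap, although the fall was small (log2 fold change -0.55, SE 0.10, adjusted p = 0.00757 by edgeR). PGAM1, the phosphoglycerate mutase, stood at 679.6, 779.9, and 709.7 CPM in H1975 and at 555.1, 408.3, and 421.7 CPM in H1975–OR. All 3 resistant libraries were lower, Sample 2a least so (log2 fold change -0.63, SE 0.14, adjusted p = 0.0136 by edgeR). PKM, the pyruvate kinase of most tissues and tumours, stood at 1997, 2206, and 1518 CPM in H1975 and at 1317, 1263, and 1131 CPM in H1975–OR. Sample 1c was the lowest parental library and still lay above the resistant ones (log2 fold change -0.61, SE 0.15, adjusted p = 0.0207 by edgeR). TPI1, the triose isomerase, had a log2 fold change of -0.28 (adjusted p = 0.102 by edgeR), while GAPDH at 0.12 and ENO1, the ubiquitous enolase, at 0.11 were close to 0. GAPDH, PGK1, PKM, LDHA, PGAM1, ENO1, TPI1, and ALDOA have processed pseudogenes or close paralogs, and the estimates may share reads with them.

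For lactate, LDHA, the dehydrogenase subunit that favours lactate, stood at 2263, 2368, and 2080 CPM in H1975 and at 1646, 1854, and 1888 CPM in H1975–OR. The lines did not overlap, but the change missed the threshold (log2 fold change -0.30, SE 0.10, adjusted p = 0.0683 by edgeR). LDHB, the subunit that favours pyruvate, had a log2 fold change of 0.41 in the other direction (adjusted p = 0.051 by edgeR), with every resistant library above every parental one. The lactate transporters SLC16A1 (log2 fold change 0.12) and SLC16A3 (-0.18) overlapped between the lines. Summed over the 17 enzymes, the level was 18094 ± 1330 CPM in H1975 and 16244 ± 1800 CPM in H1975–OR (SD, n = 3 each). Without GAPDH, which alone ranged from 2604 to 6318 CPM over the H1975–OR libraries other than 3a, the sums were 13440 ± 1010 and 11245 ± 480 CPM (SD, n = 3 each).

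Of the kinases that set flux, PFKFB4, which makes and removes the activator of phosphofructokinase, stood at 18.88, 21.15, and 23 CPM in H1975 and at 5.729, 9.1, and 7.905 CPM in H1975–OR. The lines were far apart (log2 fold change -1.45, SE 0.28, adjusted p = 0.00894 by edgeR). PFKFB3, its relative with the strongest kinase activity, had a log2 fold change of -0.29 (adjusted p = 0.255 by edgeR). PDK1 and PDK3 curb the use of pyruvate within mitochondria by phosphorylating pyruvate dehydrogenase. Their log2 fold changes were -0.56 (adjusted p = 0.0821 by edgeR) and 0.40 (adjusted p = 0.199 by edgeR). Neither was called, and each had libraries that did not overlap between the lines.

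HIF1A, on chromosome 14 from 61695513 to 61748259, stood at 672.9, 655.1, and 771.3 CPM in H1975 and at 419, 555.5, and 552.4 CPM in H1975–OR. Every resistant library was lower, and the call is close to the threshold (log2 fold change -0.44, SE 0.13, adjusted p = 0.0481 by edgeR). EGLN1, the main oxygen-sensing hydroxylase, was level at a log2 fold change of 0.05. EGLN3, a hydroxylase that is itself a HIF target, stood at 46.26, 43.39, and 40.91 CPM in H1975 and at 30.08, 7.859, and 2.121 CPM in H1975–OR. All resistant libraries were lower, but they differed widely among themselves, and the change was not called (log2 fold change -1.69, SE 0.71, adjusted p = 0.131 by edgeR). A fit to the b and c libraries without letter a was added once the data had been seen, and called 15 members and 23.3% of all genes. It called EGLN3, but it leaves out Sample 2a, the highest resistant library for this gene, so that call was set by the choice of libraries.

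The hypoxia targets moved in both directions. CA12, a membrane carbonic anhydrase that regulates pH outside the cell, lies on chromosome 15 from 63321378 to 63381846. It stood at 72.07, 48.31, and 56.78 CPM in H1975 and at 6.547, 5.171, and 6.17 CPM in H1975–OR. The resistant libraries lay far under the parental ones (log2 fold change -3.29, SE 0.30, adjusted p = 0.000443 by edgeR). CA9, the related anhydrase often used as a hypoxia marker, stood at 7.103, 10.21, and 13.03 CPM in H1975 and at 0.4092, 0.4136, and 0.1928 CPM in H1975–OR. It came down to 5 counts over 3 libraries against 161 in H1975, a ratio of 29.7 (95% exact interval from 12.5 to 92.7, counting error only), and the fitted change was called (log2 fold change -4.80, SE 0.55, adjusted p = 0.00109 by edgeR). P4HA2, a collagen prolyl 4-hydroxylase on chromosome 5 from 132190147 to 132295315, stood at 77.61, 71.65, and 65.74 CPM in H1975 and at 131.4, 144.8, and 142.9 CPM in H1975–OR. It rose in every resistant library (log2 fold change 0.98, SE 0.11, adjusted p = 0.000956 by edgeR). BNIP3L, a receptor for mitochondrial autophagy, stood at 141.5, 168.1, and 167.3 CPM in H1975 and at 209.5, 216.5, and 196.3 CPM in H1975–OR. Its rise was smaller (log2 fold change 0.40, SE 0.10, adjusted p = 0.0289 by edgeR).

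P4HA1, the isozyme of P4HA2 that is the more common subunit, had a log2 fold change of -0.52 (adjusted p = 0.0584 by edgeR), with no overlap between the lines. The other 7 targets overlapped between the lines and were not called. VEGFA, the vessel growth factor, had a log2 fold change of -0.24, and ADM, the vasodilator adrenomedullin, -0.90. BNIP3, the relative of BNIP3L, was at -0.15, NDRG1, a stress-responsive gene, at 0.71, and ANKRD37, a small HIF target, at 0.65. The repressor MXI1 was at 0.54 and KDM3A, a histone demethylase, at 0.42.

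Of the 13 calls, 8 held in every alternative that was run for them (ALDOA, CA12, CA9, ENO2, P4HA2, PFKFB4, PFKP, and PGK1), and 5 were lost in at least 1. Leaving out 1 vehicle library ended the HIF1A call whichever of the 6 it was (adjusted p from 0.0511 to 0.118 by edgeR). The HK2 call was lost without Sample 1b, 1c, 2a, 2b, or 2c (0.0617 to 0.117), and that of BNIP3L without 1a, 1b, 1c, 2b, or 2c (0.0505 to 0.0984). The PKM call was lost without 1a, 1b, 2b, or 2c (0.0513 to 0.0722), and that of PGAM1 without 1b, 2b, or 2c (0.0507 to 0.0555). Without Sample 2b, and likewise without 2c, 8 members were called. The share of all genes in these fits is not given here, so a loss over all genes cannot be told apart.

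**Figure D2:**
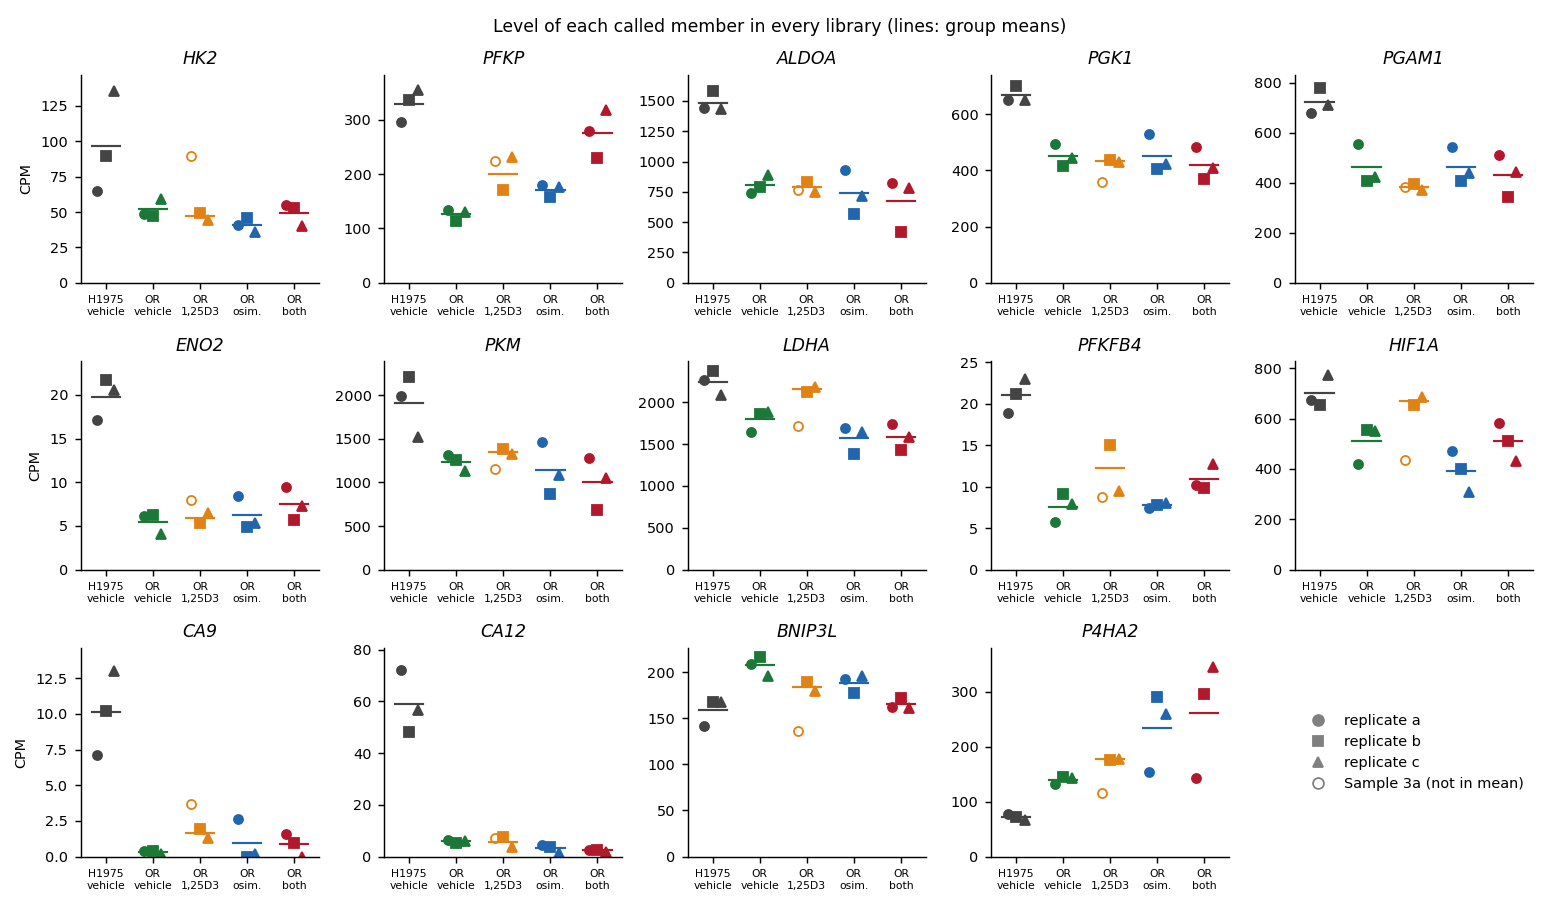
CPM of the 14 members called in at least 1 planned comparison, in each of the 15 libraries, with each axis starting at 0 and lines for the group means without Sample 3a. H1975 is above all vehicle-treated H1975–OR libraries in 12 panels and below them for BNIP3L and P4HA2.

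To set these genes beside what is upstream of them, the 250 bases before the annotated start of the MANE Select transcript were read for 28 of the 40 members from the RefSeq promoter table of GRCh38.p14. The pentamer ACGTG, searched on both strands, is the core of many hypoxia response elements, and it is also contained in CACGTG, which other factors bind. It was found in 15 of these 28 windows (53.6%), against 21.0% of the 14473 windows of all genes. The related GCGTG was in 12 windows (42.9%), against 41.0% of all genes. A match is only a run of letters in a window. Of the 11 members called lower, 9 have a window. ACGTG is in 5 of these (CA9, ENO2, PGK1, HK2, and ALDOA) and in none of the other 4 (CA12, PKM, PFKFB4, and HIF1A), a share near that of all members. The 5 windows that hold it are shown, with the match in capitals on either strand (as ACGTG or its reverse complement CACGT), beside that of CA12, the member with the smallest adjusted p, as a window without it. In the CA9 window the match begins at position -18 from the start, in the ENO2 window at -118 and in the ALDOA window at -198, and the HK2 and PGK1 windows hold 2 each. The windows are chr9:35673678-35673927 on the plus strand for CA9, chr12:6914330-6914579 on the plus strand for ENO2, chrX:78103998-78104247 on the plus strand for PGK1, chr2:74833877-74834126 on the plus strand for HK2, chr16:30065510-30065759 on the plus strand for ALDOA and chr15:63381847-63382096 on the minus strand for CA12. Each is printed 5′ to 3′ on the strand of its gene.
CA9: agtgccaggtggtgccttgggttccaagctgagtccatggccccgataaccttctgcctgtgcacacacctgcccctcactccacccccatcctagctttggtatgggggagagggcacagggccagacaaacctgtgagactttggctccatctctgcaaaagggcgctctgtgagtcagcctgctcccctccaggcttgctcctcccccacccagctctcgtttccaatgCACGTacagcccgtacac
ENO2: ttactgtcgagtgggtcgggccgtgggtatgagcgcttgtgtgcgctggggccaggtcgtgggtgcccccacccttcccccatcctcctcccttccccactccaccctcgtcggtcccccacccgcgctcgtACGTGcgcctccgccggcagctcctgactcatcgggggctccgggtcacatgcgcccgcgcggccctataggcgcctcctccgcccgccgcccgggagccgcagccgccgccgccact
PGK1: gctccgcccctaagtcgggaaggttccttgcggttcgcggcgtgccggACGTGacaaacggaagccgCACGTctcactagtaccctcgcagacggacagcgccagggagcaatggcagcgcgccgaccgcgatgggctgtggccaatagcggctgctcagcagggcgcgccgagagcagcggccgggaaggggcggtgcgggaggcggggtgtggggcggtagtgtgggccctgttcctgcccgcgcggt
HK2: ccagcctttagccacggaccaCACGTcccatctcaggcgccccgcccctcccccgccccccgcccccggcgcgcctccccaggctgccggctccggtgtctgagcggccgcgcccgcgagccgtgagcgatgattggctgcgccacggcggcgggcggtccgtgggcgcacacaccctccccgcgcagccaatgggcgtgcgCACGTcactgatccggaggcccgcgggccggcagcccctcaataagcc
ALDOA: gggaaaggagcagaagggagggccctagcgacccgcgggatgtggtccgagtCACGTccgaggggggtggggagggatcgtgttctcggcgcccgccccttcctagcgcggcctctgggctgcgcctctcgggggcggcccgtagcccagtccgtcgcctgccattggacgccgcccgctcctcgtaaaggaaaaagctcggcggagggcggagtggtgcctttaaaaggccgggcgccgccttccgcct
CA12: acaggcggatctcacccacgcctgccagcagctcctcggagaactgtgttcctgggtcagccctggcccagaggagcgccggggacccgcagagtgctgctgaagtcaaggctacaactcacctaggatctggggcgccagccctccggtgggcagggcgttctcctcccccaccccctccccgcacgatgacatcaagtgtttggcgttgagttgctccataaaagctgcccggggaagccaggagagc

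Called genes outside the 40 members came from 4 wider lists of the same pathways, of which 35, 40, 10, and 10 genes were tested. Of other glycolysis and pyruvate genes 4 were called higher and 2 lower, of other hypoxia genes 3 and 3, of the pentose phosphate pathway 1 and 1, and of glucose-sensing and upstream regulators 1 and 1. These calls are 17.1%, 15%, 20%, and 20% of the genes tested, none above the 20.1% of all genes, so they set none of the lists apart, and the genes named next are those of the longer lists with the smallest adjusted p. Among the glycolysis genes SLC2A6, a lysosomal sugar transporter, rose from 12.47 ± 2.70 to 40.57 ± 13.5 CPM (SD, n = 3 in each line here and below; log2 fold change 1.71, adjusted p = 0.00471 by edgeR). BSG, the chaperone of the lactate transporters, rose from 657.2 ± 99.8 to 1422 ± 402 CPM (log2 fold change 1.13, adjusted p = 0.00818 by edgeR). FBP1, the gluconeogenic enzyme that opposes phosphofructokinase, fell from 14.78 ± 1.35 to 5.142 ± 1.49 CPM (log2 fold change -1.50, adjusted p = 0.014 by edgeR). Of the hypoxia genes, CITED2, which competes with HIF for its coactivators, rose from 46.08 ± 3.66 to 214.8 ± 40.7 CPM (log2 fold change 2.24, adjusted p = 0.000151 by edgeR). PPP1R3C, a glycogen-targeting subunit, rose from 33.23 ± 4.06 to 162.8 ± 56.7 CPM (log2 fold change 2.31, adjusted p = 0.00115 by edgeR). BHLHE40, a HIF-induced repressor, fell from 90.7 ± 26.2 to 35.49 ± 6.19 CPM (log2 fold change -1.335, adjusted p = 0.00596 by edgeR), and HMOX1, the heme-degrading enzyme, from 112.3 ± 40.7 to 26.15 ± 13 CPM (log2 fold change -2.09, adjusted p = 0.007 by edgeR). ERO1A, an oxidase of the endoplasmic reticulum, fell from 138.1 ± 43.3 to 67.69 ± 8.26 CPM (log2 fold change -1.01, adjusted p = 0.0127 by edgeR).

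Isozyme balance was described per kilobase of the MANE Select transcript, with no test, since 3 libraries against 3 cannot reach an exact permutation p under 0.10. PFKP made up 65.37%, 75.45%, and 67.36% of the 3 phosphofructokinase genes in H1975 and 47.66%, 38.13%, and 38.64% in vehicle-treated H1975–OR. Every resistant library was lower, and PFKP was no longer the majority of that step. With 1,25(OH)2D3 the share was 57.43% and 51.02% (Samples 3b and 3c), with osimertinib 54.75%, 57%, and 46.08%, and with both agents 59.12%, 62.35%, and 66.65%. LDHA made up 65.93 ± 2.11% of LDHA and LDHB in H1975, 54.07 ± 0.79% with vehicle, 62.48% in each of Samples 3b and 3c, 54.1 ± 2.2% with osimertinib and 57.55 ± 6.63% with both agents (SD, n = 3 except for 1,25(OH)2D3). P4HA2 made up 25.51 ± 5.71% of P4HA1 and P4HA2 in H1975 and 48.63 ± 3.92% in vehicle-treated H1975–OR (SD, n = 3 each). The HK2 share of the hexokinase pair was 25.94 ± 9.11% in H1975 and 16.96 ± 1.43% in H1975–OR (SD, n = 3 each), and overlapped between the lines. SLC16A3 held 33.47 ± 3.61% and 28.89 ± 3.71% of the lactate transporter pair, and SLC2A1 at least 94.21% of the glucose transporter pair in every library other than 3a. ENO2 was a minor enolase throughout, at 0.40 ± 0.04% of the ENO1 and ENO2 sum in H1975 and 0.11 ± 0.03% in H1975–OR (SD, n = 3 each). ALDOC was 3.52 ± 0.35% of the aldolase pair in H1975 and 6.08 ± 0.89% in H1975–OR (SD, n = 3 each), although ALDOC itself was not called. Per kilobase, GAPDH was the highest member in both lines, at 3622 ± 285 CPM per kb in H1975 and 3891 ± 1030 in H1975–OR, followed by ENO1 at 2139 ± 170 and 2288 ± 201 (SD, n = 3 each).

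**Figure D3:**
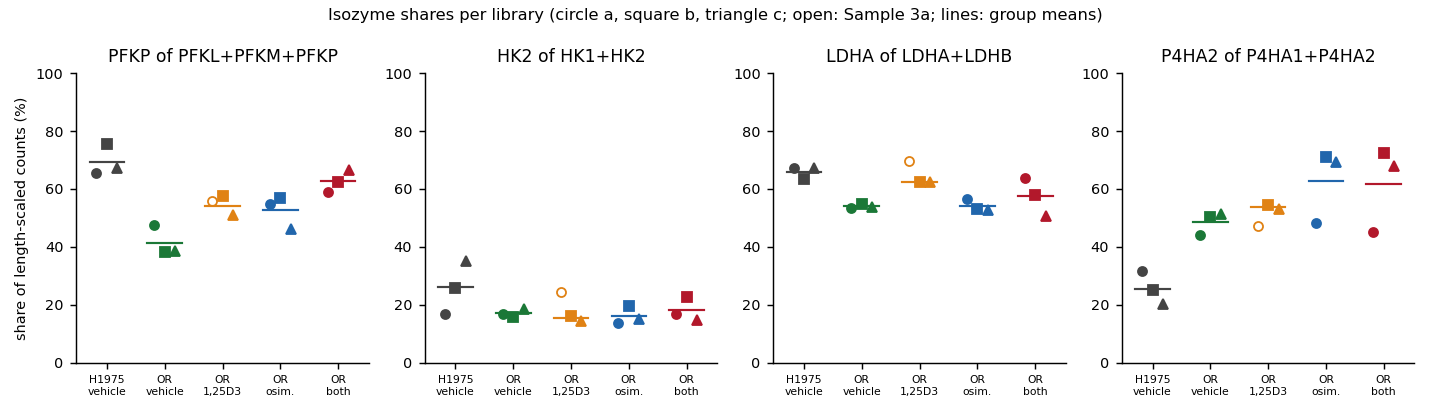
Share of PFKP, HK2, LDHA and P4HA2 in the length-scaled level of their isozyme family, in percent, for each library, with lines for group means without Sample 3a. PFKP lies between 65.37% and 75.45% in H1975 and between 38.13% and 47.66% in vehicle-treated H1975–OR, and P4HA2 lies above its H1975 range in every H1975–OR library.

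The second comparison asks what the hormone alone did in the resistant line, and 0 of 39 members were called (background 0.152% of 12513 genes, all higher). At an unadjusted p under 0.05 there were 6, against 910 of the 12513 genes, and DESeq2 called PFKP alone, with 1.01% of all genes. PFKP stood at 170.1 and 231.4 CPM in Samples 3b and 3c, both above the vehicle libraries (log2 fold change 0.67, SE 0.15, adjusted p = 0.251 by edgeR). HIF1A, at 654.6 and 685.2 CPM, was also above all vehicle libraries, with a log2 fold change of 0.40 (adjusted p = 0.587 by edgeR). LDHA at 2117 and 2186 CPM had a log2 fold change of 0.26 (adjusted p = 0.672 by edgeR). CA9 had 16 counts in these 2 libraries (log2 fold change 2.18, SE 0.61, adjusted p = 0.457 by edgeR), and H1975 stayed 6.24 times higher per count total (95% exact interval from 3.73 to 11.2). The remaining members at this p were P4HA2 (log2 fold change 0.34) and ALDOC (-0.48). In Sample 3a, left out here, HIF1A (436 CPM) and LDHA (1715 CPM) lay within the vehicle range and P4HA2 (115.6 CPM) under it. PFKP (224.8 CPM) and CA9 (3.658 CPM) lay above that range there and ALDOC (27.84 CPM) under it, as in Samples 3b and 3c. Both libraries lay above all 3 vehicle libraries for 9 members and below them for 5, where 13.1% and 12.3% of all genes did. The median log2 fold change of the members was 0.003 and that of all genes -0.0073. This comparison and the first share the vehicle libraries.

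The third and later comparisons ask what osimertinib did to cells adapted to it, alone and with the hormone. The methods name no pairing. Libraries of 1 letter deviated together between vehicle, osimertinib and both agents, so values with the letter as a block are given for comparisons among these 3 groups where they change a call. The rule asked for 3 letters, each with a correlation of deviations over 0.1. Letters b and c were less clearly set apart: Samples 2b and 5b had a correlation of 0.118, and 2b and 5c one of 0.107. The 1,25(OH)2D3 group has 2 letters left, whose deviations mirror each other, so the rule could not judge its pairing. Its same-letter correlations with vehicle were 0.0698 and 0.108. Against vehicle, osimertinib gave 0 calls among 38 members (background 0.048% of 12503 genes), and 0 with the block. An unadjusted p under 0.05 was reached by 3 members and by 941 of the 12503 genes. DESeq2 called 0 members and 0.955% of all genes. CA9 was too low to be tested in these fits, with 15 counts over the 3 osimertinib libraries and 12 over the 3 with both agents.

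Averaged over cells without and with 1,25(OH)2D3, osimertinib called 0 of 38 members (background 2.04%). An unadjusted p under 0.05 was reached by 9 members and by 2048 of the 12503 genes tested. DESeq2 called 4 and 6.06% of all genes, with PFKP and ADM higher and LDHA and SLC16A1 lower. These and P4HA2 are described here as chosen after their values were seen. P4HA2 stood at 154.1, 290.4, and 259.3 CPM with osimertinib and at 143, 295.9, and 345.6 CPM with both agents, against 131.4 to 144.8 CPM with vehicle and 175.5 and 178.2 CPM with 1,25(OH)2D3. The b and c libraries were high, while Samples 4a and 5a stayed near the vehicle libraries (log2 fold change 0.65, SE 0.23, adjusted p = 0.185 by edgeR). ADM stood at 8.389, 1.448, and 2.506 CPM with vehicle, 18.27, 5.119, and 2.863 CPM with osimertinib, 2.578 and 1.301 CPM with 1,25(OH)2D3 and 24.87, 8.932, and 6.605 CPM with both agents. Within each letter the osimertinib library was above its vehicle library, although the groups overlapped (log2 fold change 1.94, SE 0.67, adjusted p = 0.183 by edgeR). SLC16A1, a lactate transporter, stood at 367.5, 356.1, and 337.8 CPM with vehicle, 338.1, 238.3, and 252.6 CPM with osimertinib, 356.8 and 351.8 CPM with 1,25(OH)2D3 and 297.4, 242.6, and 243.2 CPM with both agents. Only Sample 4a overlapped the libraries without osimertinib (log2 fold change -0.40, SE 0.11, adjusted p = 0.102 by edgeR). LDHA stood at 1696, 1380, and 1641 CPM with osimertinib and 1743, 1423, and 1585 CPM with both agents, near or under the vehicle libraries and under the 1,25(OH)2D3 libraries (log2 fold change -0.32, SE 0.09, adjusted p = 0.116 by edgeR). Of the wider lists PPP1R3B (log2 fold change 0.60, adjusted p = 0.0378 by edgeR) and PGD, a dehydrogenase of the pentose phosphate pathway (-1.60, adjusted p = 0.0325), were called without the block.

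PFKP was the one member called for the combination. It stood at 179.8, 157.5, and 175.5 CPM with osimertinib and at 278.7, 229.7, and 319 CPM with both agents, against 113.8 to 133.4 CPM with vehicle. The order was vehicle below osimertinib below both agents with no overlap, and both agents left it near, though mostly under, the 296.4 to 354.5 CPM of H1975. Both agents against vehicle called 1 of 38 members (background 0.496%), PFKP at a log2 change of 1.13 (SE 0.16, adjusted p = 0.023 by edgeR). With the block 3 members were called, against 3.69% of all genes: PFKP (adjusted p = 0.00201 by edgeR), SLC16A1 (-0.45, adjusted p = 0.0355) and ADM (1.78, adjusted p = 0.042). Without Sample 2b, 2c, or 5c the PFKP call was lost (adjusted p = 0.107, 0.0934, and 0.058 by edgeR), with log2 fold changes from 1.01 to 1.16.

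Adding the hormone to osimertinib gave 0 calls among 38 members (background 0.096%). With an unadjusted p under 0.05 there was 1 member, against 520 of the 12503 genes. DESeq2 called 1 member and 0.528% of all genes. With the block PFKP was called at a log2 change of 0.67 (SE 0.08, adjusted p = 0.027 by edgeR), where 0.264% of all genes were called. The mean of the hormone effects without and with osimertinib, a comparison added after seeing the data, called PFKP alone (background 0.368%), at a log2 change of 0.68 (SE 0.12, adjusted p = 0.0396 by edgeR). Leaving out any 1 library other than 5b ended the PFKP call (adjusted p from 0.0572 to 0.217 by edgeR). The osimertinib effect did not differ detectably with the hormone: 0 of 38 members and 0% of 12503 genes were called. Here 0 members and 330 genes had an unadjusted p under 0.05, and DESeq2 called 0 members (0.088% of all genes). For PFKP that difference was 0.01 with an SE of 0.23.

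**Figure D4:**
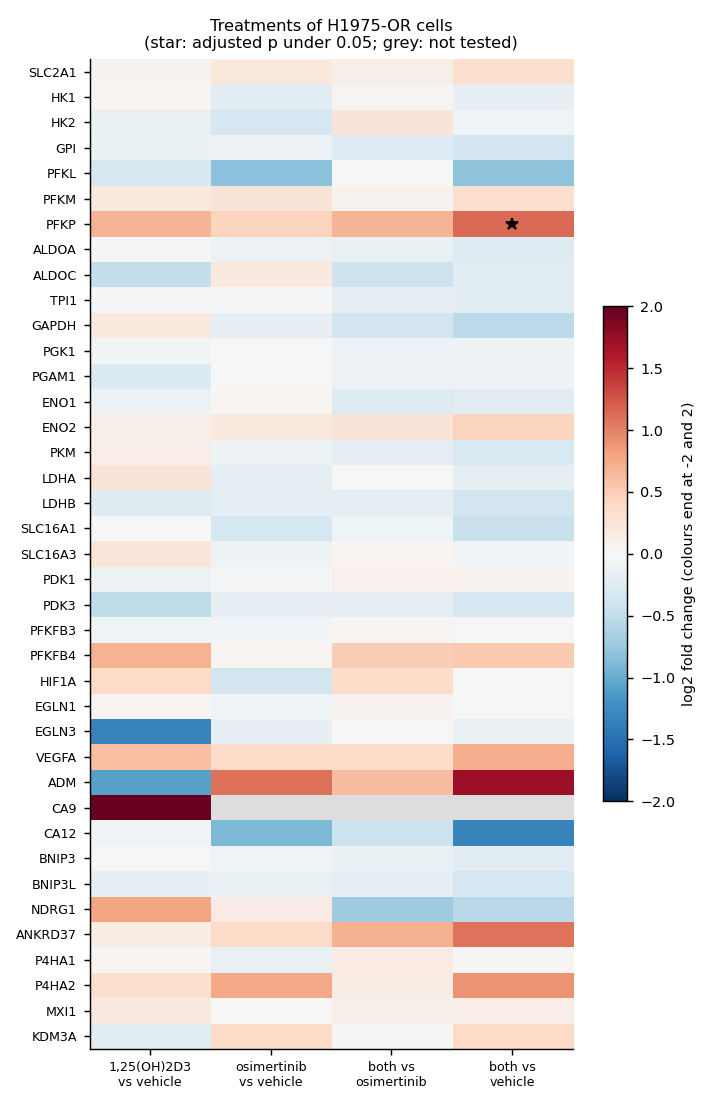
Log2 fold change of 39 members in 4 comparisons of treated H1975–OR cells, with red higher and blue lower, colours ending at -2 and 2, and grey for CA9 where it was not tested. The single star is PFKP for both agents against vehicle, and PFKP is red in all 4 columns.

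Across all 5 conditions 12 of 39 members differed (background 21.2% of 12819 genes). They were CA12, PFKP, ENO2, P4HA2, PFKFB4, HK2, PGK1, PGAM1, ALDOA, LDHA, HIF1A, and CA9, all but LDHA called between the 2 lines too. With Sample 3a set aside, PFKP alone of the 7 enzymes called lower in the resistant line had a treated library within the H1975 range, Sample 5c. In Sample 3a HK2, at 89.39 CPM, was within its H1975 range. Over the 8 treated H1975–OR libraries other than 3a, ALDOA ran from 415.8 to 933.9 CPM (median 768.5), PGK1 from 370.5 to 529 (median 425.4), PGAM1 from 341.5 to 541.3 (median 422.1), ENO2 from 4.914 to 9.425 (median 6.073) and HK2 from 35.79 to 54.95 (median 45.04). CA12 ran from 1.227 to 7.734 CPM (median 3.147) and PFKFB4 from 7.421 to 15.04 (median 9.675), under every H1975 library too. PKM ran from 684.5 to 1467 CPM (median 1188), all under the lowest H1975 library at 1518. HIF1A ran from 307 to 685.2 CPM (median 491.4), with Sample 3c alone inside the H1975 range. BNIP3L ran from 160.9 to 195.9 CPM (median 178.7).

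Within H1975–OR the replicate letter was a further axis. Letter a lay above all 8 b and c libraries for 6 of 38 tested members (15.8%) and under them for 1 (2.63%), where 6.85% and 6.39% of all tested genes did. The 6 were PGK1, PGAM1, PDK1, PFKFB3, EGLN3, and P4HA1, and the 1 was VEGFA. EGLN3 stood at 30.08, 27.21, and 25.47 CPM in Samples 2a, 4a, and 5a and at 2.121 to 7.859 CPM in the 8 b and c libraries, a log2 difference of 2.15 in mean log2(CPM + 2). VEGFA stood at 24.14, 28.92, and 35.49 CPM in the same a libraries and at 35.57 to 86.97 CPM in the others. Mitochondrial mRNA was 0.746% to 1.04% of counts in these a libraries and 0.424% to 0.774% in the b and c libraries, and its part in the letter differences was not tested. In H1975 EGLN3 was 46.26, 43.39, and 40.91 CPM, with no such split.

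**Figure D5:**
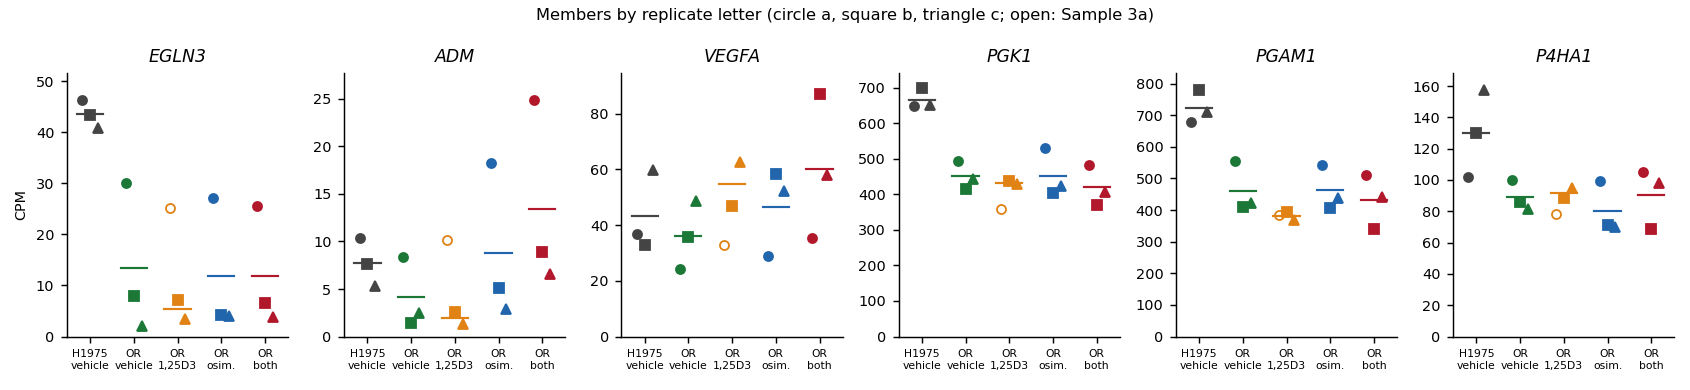
CPM of 6 members in each library, with circles for letter a, squares for b and triangles for c, and axes from 0. In H1975–OR the filled circles of EGLN3, PGK1, PGAM1 and P4HA1 sit above the squares and triangles and those of VEGFA sit below, while ADM overlaps.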

How the data were processed

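The authors sequenced stranded total RNA libraries, estimated transcript abundance with kallisto and summed it to genes with tximport. The deposited values are the authors' estimated counts for 19612 symbols, not scaled for depth. The tximport setting is not given, but 32.1% of the values from 0.5 to 100 lie within 0.01 of a whole number, where an even spread would put 2.0%, and they were taken as not scaled for length. The submitters' processing notes name CASAVA 1.8.2, STAR 2.5.2b, kallisto 0.43.0 and GRCh38, and the transcript annotation is not given in the sources used here. Here the estimated counts were rounded to whole numbers, scaled by TMM and tested with edgeR 4.0.16 (quasi-likelihood, filterByExpr with a minimum count of 10 and total of 15, Benjamini-Hochberg adjustment, threshold 0.05) in R 4.3.3. H1975–OR against H1975 and 1,25(OH)2D3 against vehicle used 8 libraries, the comparisons with osimertinib the 11 of H1975–OR, and the test across conditions 14. Standard errors are the log2 fold change over the root of F. Library totals lay between 4378030 and 6140120, and intervals cover counting error only. Lengths came from GENCODE annotation of GRCh38.

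The rule names members without measured values, but members and lists were chosen with earlier results of these data known. All 40 members were to be named, with values per library for those called and for HIF1A, and genes of the wider lists only where called, at most 8 per comparison. Alternatives were RLE factors, DESeq2 1.42.0, no low-count filter, the replicate block, at least 10 counts per library throughout, a fit that keeps Sample 3a, 14 libraries in one fit, shares without length, and each library left out. Added after seeing the data were the mean 1,25(OH)2D3 effect, the b and c libraries alone, and 1,25(OH)2D3 in the 11 H1975–OR libraries. The edgeR test was also run on simulated data with independent libraries and a fixed size of change. That run did not cover letter pairing or smaller changes, and its outcome is not reported here. Letters were taken to pair groups that had 3 letters each and in which every same-letter correlation of deviations passed 0.1. These correlations lay between 0.124 and 0.31 for vehicle with osimertinib and between 0.258 and 0.464 for osimertinib with both agents. For vehicle with both agents they lay between 0.118 and 0.341. They lay between -0.0296 and 0.0219 for H1975 with vehicle-treated H1975–OR. The highest between different letters was 0.0928 for vehicle with osimertinib, 0.0835 for osimertinib with both agents and 0.107 for vehicle with both agents. A gene of the wider lists is not reported here.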

Additional observations from a re-analysis of the deposited data

Results flagged for a closer look

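Sample 3a, the 1,25(OH)2D3 library that the comparisons leave out, held 4 members at over 1.5 times the highest vehicle-treated H1975–OR library. HK2 stood at 89.39 CPM there, against 47.57 to 59.19 CPM with vehicle and 49.41 and 44.42 CPM in Samples 3b and 3c. PFKP stood at 224.8 CPM, against 113.8 to 133.4 CPM with vehicle, and lay between Samples 3b and 3c at 170.1 and 231.4 CPM. PFKFB3 stood at 60.76 CPM, against 32.88 to 38.88 CPM with vehicle and 30.51 and 38.66 CPM in Samples 3b and 3c. CA9 stood at 3.658 CPM, against at most 0.4136 CPM with vehicle and 1.933 and 1.301 CPM in Samples 3b and 3c. Of the 40 members, 28 in Sample 3a were within the range of the other 14 libraries, 3 above it and 9 below it. No share over all genes was taken for this range or for the limit of 1.5 times. Neither count therefore sets the members apart from other genes in this library. Mitochondrial mRNA made up 1.54% of its counts, where no other library exceeded 1.05%, and its part in these values was not tested.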

How the results depend on the processing

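The 15 fold changes called for single members kept their direction under all 214 alternatives run for them, and stayed called in 169. CA9 gave no value with at least 10 counts in every library. Members called between the lines numbered 8 to 14 with 1 library left out, and across the 5 conditions 7 (without Sample 1c) to 14. Where no share of all genes stands beside a count in this section, that share is not given here. Such a count cannot tell a loss or gain of calls among the members from one over all genes. DESeq2 called 1 member for 1,25(OH)2D3 (1.01% of all genes) and 1 for both agents against osimertinib (0.528%). It called 2 for both agents against vehicle (2.97%) and 4 for the average osimertinib effect (6.06%). With the replicate block the paired comparisons gave 1 for both agents against osimertinib and 3 for both agents against vehicle. Where the 1,25(OH)2D3 group enters, pairing by letter could not be settled with 2 libraries. There the block gave 5 members for the average osimertinib effect (7.45% of all genes) and 2 for the average 1,25(OH)2D3 effect (1.34%). It gave 1 member for 1,25(OH)2D3 in the 11 H1975–OR libraries. In the other comparisons of H1975–OR and H1975 the block changed no count by over 1.5 times. It gave 13 between the lines (17.2% of all genes) and 18 across conditions. With the b and c libraries alone, counts were 1 for osimertinib (0.652% of all genes) and 3 for both agents against vehicle (2.32%). They were 4 for the average osimertinib effect (6.28%) and 0 for the average 1,25(OH)2D3 effect (0.359%). Leaving out 1 library gave 0 to 1 for both agents against vehicle, for the average osimertinib effect (1 without Sample 4a or 5a) and for the average 1,25(OH)2D3 effect. Shares without length put LDHA at 76.9% in H1975 and 66.9% in vehicle-treated H1975–OR. Depth limits members with few counts, CA9, SLC2A3, ANKRD37, CA12 and ADM among them.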
